A study of Homo sapiens with 8 samples.

Results

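The C/D box small nucleolar RNAs (snoRNAs) were taken as all genes of the array whose name begins with SNORD, 188 of the 43317 genes, read by 192 probes. Of these, 131 lie outside the imprinted clusters SNORD113 to SNORD116, and 57 belong to those clusters and were kept apart. Each of 8 2-colour arrays set treated RNA in Cy5 against mock RNA of the same cell line in Cy3, with 1 array per treatment and no exchange of dyes. The arrays, in the order used for every series of 8 values here, were PC3 cells given bisamide for 24 h, PC3 cells given it for 48 h, C4-2 cells given miR-199-3p, PC3 cells given miR-125b-1-3p, 786-O cells given miR-532-5p, 786-O cells given miR-532-3p, T24 cells given miR-140-5p and T24 cells given miR-140-3p. PC3 and C4-2 are prostate cancer lines, 786-O is a renal cancer line and T24 a bladder cancer line. The miRNAs were transfected with Lipofectamine RNAiMAX. Bisamide is a small molecule that binds Pirin, although the labels list it under transfection. The mock cells are labelled as not transfected, so a miRNA and the transfection itself cannot be told apart. Nor can bisamide and the DMSO it was dissolved in, since the labels name no vehicle for its mock. The methods do not say that cultures were repeated, and each ratio below comes from 1 array. Whether the RNA of an array came from 1 culture is not stated.

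As a check of the labels in the mock channels, KLK3, the gene of prostate-specific antigen, gave a raw Cy3 signal of 13592 in C4-2 and of 21.4 to 22.6 in the other lines. NNMT, fixed as a marker of 786-O, gave 924 and 1004 there, 60.2 and 62.6 in the bisamide PC3 mocks and 401 in the other PC3 mock. PAX8, the other 786-O marker, gave 235 and 239 in 786-O and 390 and 423 in T24. The PC3 mock of the miR-125b-1-3p array thus differed in NNMT from those of the bisamide arrays.

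C/D box snoRNAs are short nuclear RNAs that hold a C box near the 5′ end and a D box near the 3′ end, which fold together and bind the proteins SNU13, NOP56, NOP58 and fibrillarin. A stretch next to the D box pairs with another RNA, and fibrillarin then methylates the 2′-hydroxyl of the paired nucleotide. Most members guide methylation of 18S or 28S ribosomal RNA, and a few, such as U3 and U22, serve in cutting the ribosomal precursor. Nearly all human members are released from introns of host genes, often genes of ribosomal proteins or of noncoding RNAs such as GAS5. The SNORD115 and SNORD116 clusters on chromosome 15 are transcribed from the paternal allele, and SNORD116 lies in the Prader-Willi region.

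The probes are 60 bases long and the snoRNAs 60 to 237 bases, with a median of 75, so a probe covers most of a typical member. The probes of the members on which the results turn are printed here 5′ to 3′ in the sense of the RNA, with every TGATGA, the core of the C box, and every CTGA, the letters of the D box, in capitals. Several of these matches lie outside the D box, as in the middle of the U3 probe. Positions are those of GRCh37. The first set holds U3 and a pair of members past 0.5 on 3 or more arrays, SNORD3B-1 at chr17:18965252-18965311 (plus strand), SNORD26 at chr11:62622764-62622823 (minus) and SNORD16 at chr15:66795149-66795208 (minus).
SNORD3B-1: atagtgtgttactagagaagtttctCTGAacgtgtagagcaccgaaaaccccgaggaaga
SNORD26: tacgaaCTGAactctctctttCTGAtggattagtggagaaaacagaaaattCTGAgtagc
SNORD16: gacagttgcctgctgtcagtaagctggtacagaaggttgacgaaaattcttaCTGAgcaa

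The next set shows the 4 members within NOP56, which moved unlike each other, on the plus strand at chr20:2634869-2634928 (SNORD110), chr20:2636769-2636828 (SNORD86), chr20:2637281-2637340 (SNORD56) and chr20:2637597-2637656 (SNORD57).
SNORD110: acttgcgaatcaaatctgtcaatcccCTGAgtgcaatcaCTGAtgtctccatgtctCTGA
SNORD86: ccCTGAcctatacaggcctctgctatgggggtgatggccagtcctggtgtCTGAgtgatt
SNORD56: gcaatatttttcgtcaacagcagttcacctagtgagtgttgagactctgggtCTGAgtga
SNORD57: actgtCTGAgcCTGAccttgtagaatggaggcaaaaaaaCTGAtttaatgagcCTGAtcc

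The last set holds SNORD76 and SNORD47 of GAS5 at chr1:173835773-173835832 and chr1:173833507-173833566 (both minus), SNORD48, a common reference RNA in miRNA assays, at chr6:31803043-31803103 (plus), and a pair of SNORD116 copies, SNORD116-19 at chr15:25328768-25328827 and SNORD116-6 at chr15:25310210-25310269 (both plus).
SNORD76: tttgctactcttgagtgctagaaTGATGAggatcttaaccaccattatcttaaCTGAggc
SNORD47: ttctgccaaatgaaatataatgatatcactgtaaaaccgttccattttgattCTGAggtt
SNORD48: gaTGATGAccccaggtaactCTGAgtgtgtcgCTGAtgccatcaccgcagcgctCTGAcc
SNORD116-19: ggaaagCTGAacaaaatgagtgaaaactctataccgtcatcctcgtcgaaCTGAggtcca
SNORD116-6: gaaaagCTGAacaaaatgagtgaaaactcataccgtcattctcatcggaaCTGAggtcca

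CTGA stood on the printed strand of 125 of the 135 probes outside SNORD113 to SNORD116 (92.6%), and of all 57 probes of the clusters (100%), beside 29.7% of all 58201 probes. It stood within the last 12 bases in 74.8% of the first, 93% of the second and 5.73% of all probes, so most probes end at the D box. TGATGA stood in 18.5% of the probes outside the clusters, 35.1% of those of the clusters and 2.83% of all probes. On the other strand CTGA was found in 18.5% and 8.77% of the same probes, beside 27.2% of all, and TGATGA in 1.48% and 0%, beside 2.29%. The motifs may overlap, as in CTGATGA, and both were searched over the whole probe.

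A probe was counted as measured where the scanner marked it as well above background. Outside the clusters, 125 of the 131 genes were so marked in at least 1 channel of an array, 117 in both channels of at least 1 array, and 72 in both channels of all 8 arrays. On single arrays, in the order above, both channels were measured for 103, 103, 102, 100, 84, 84, 93 and 95 genes. The members were dim. Genes measured in both channels of an array had a median raw Cy3 signal of 39.9 over the arrays, beside 66.3 for the H/ACA and Cajal body RNAs, and 19 genes outside the clusters reached a mean of 100. Mature snoRNAs carry no poly(A) tail, and kits for linear amplification commonly prime from that tail, so the signal may come from host or precursor transcripts as well as from the snoRNAs. The source of the signal was not tested.

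Most C/D box snoRNAs stood slightly higher in Cy5 than in Cy3 on each array. The median log2 ratio of treated over mock RNA outside the clusters was 0.071, 0.066, 0.045, 0.005, 0.084, 0.088, 0.14 and 0.16 in the order of the arrays, beside 0.013, 0.013, 0.01, 0.016, 0.0011, 4.8e-05, 0.0096 and 0.017 for all genes. The medians were largest in T24 under this correction, but with plain subtraction those of 786-O, 0.32 each, exceeded the 0.28 of miR-140-3p. The median with miR-125b-1-3p in PC3 lay below that of all genes under this correction. With plain subtraction it lay above, at 0.036 beside 0.012. Ratios above 0 were found for 78.6%, 73.8%, 63.7%, 57%, 75%, 79.8%, 84.9% and 81.1% of the members measured in both channels, beside 54.3%, 54.4%, 52.8%, 54.5%, 50.2%, 50%, 52.5% and 54.6% of all genes. The SD of the log2 ratio over the repeated spots of a probe was 0.0389 to 0.0527 per array, which covers spot error within an array and no variation between cultures. Without a second array or an exchange of dyes, a treatment and a preference of a probe for one dye cannot be told apart. Without the intensity-dependent (loess) step, with each array centred on its median only, the medians of all genes measured in both channels lay at 0.45, 0.44, 0.30, 0.42, -0.033, 0.17, 0.35 and 0.45, and the members differed from them by -0.068, -0.069, -0.024, -0.17, 0.11, 0.039, 0.043 and -0.013. On that scale the members lay below all genes on the PC3 and C4-2 arrays and on that of miR-140-3p.

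**Figure D1:**
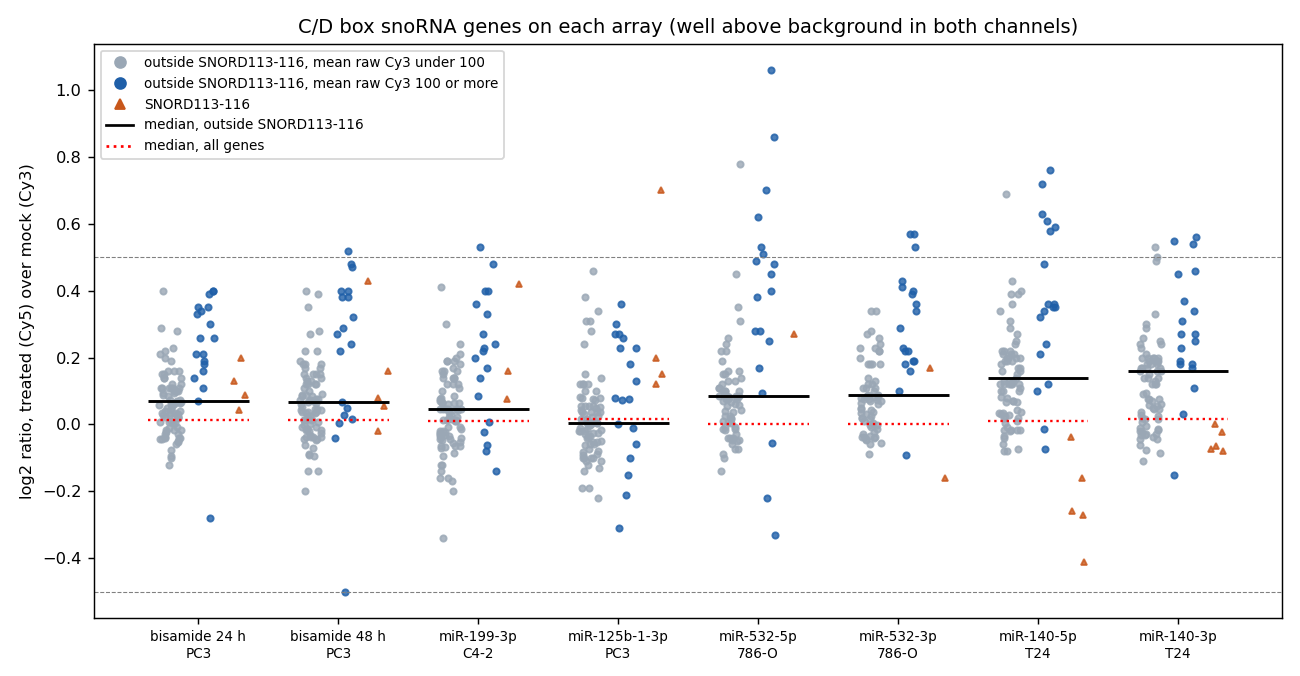
Log2 ratio of treated (Cy5) over mock (Cy3) RNA for each C/D box snoRNA gene measured in both channels, on the 8 arrays. Grey and blue circles are genes outside SNORD113 to SNORD116 with a mean raw Cy3 signal under 100 and of 100 or more, triangles are SNORD113 to SNORD116, solid bars mark the median outside the clusters and dotted bars that of all genes. The blue circles lie mostly above the grey ones, and dashed lines mark 0.5 and -0.5.

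A log2 ratio above 0.5 was reached by 0, 1, 1, 0, 7, 3, 7 and 5 members outside the clusters. Of all genes measured in both channels, 1.05%, 0.915%, 1.75%, 1.77%, 3.6%, 1.71%, 1.74% and 0.998% did so. The 7 of 84 members with miR-532-5p, the 3 of 84 with miR-532-3p, the 7 of 93 with miR-140-5p and the 5 of 95 with miR-140-3p were thus above the share over all genes, and the counts on both bisamide arrays, the miR-199-3p array and the miR-125b-1-3p array were close to or below it. A ratio below -0.5 was found for 1 member on 1 array, SNORD86 after bisamide for 48 h, beside 0.4%, 0.878%, 2.74%, 0.883%, 3.67%, 3.84%, 2.89% and 1.09% of all genes. No member passed 1.5 in either direction, a size passed by 0.078%, 0.0368%, 0.121%, 0.0107%, 0.102%, 0.149%, 0.142% and 0.0114% of all genes. The counts depended on the background correction of these dim probes, since with plain subtraction 1, 10, 7, 6, 25, 18, 32 and 21 members passed 0.5 upwards, beside 3.47%, 3.46%, 7.78%, 5.18%, 13.1%, 9.11%, 6.64% and 3.9% of all genes. They also depended on the loess step. With median centring in its place 31, 33, 18, 19, 5, 11, 28 and 36 members passed 0.5, beside 44.9%, 43.9%, 28.6%, 41.2%, 2.34%, 16.3%, 35.7% and 44.9% of all genes. The members were then above the share over all genes with miR-532-5p alone, and below it on the other arrays.

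The ratios above 0 were larger among the 19 members of raw Cy3 signal 100 or more. Their median log2 ratio was 0.26, 0.27, 0.22, 0.079, 0.40, 0.29, 0.35 and 0.27, beside 0.052, 0.05, 0.029, 0.0036, 0.071, 0.074, 0.12 and 0.12 for the dimmer members. Genes of the same brightness over the whole array had medians of -0.025 to 0.032. The correction used here adds an offset of 50 to both channels, which draws the ratios of dim probes towards 0, so the dimmer members are bound to show smaller ratios. With plain subtraction, which adds none, the medians were 0.27, 0.29, 0.26, 0.07, 0.72, 0.48, 0.41 and 0.30 for the bright members and 0.12, 0.14, 0.088, 0.021, 0.28, 0.29, 0.36 and 0.28 for the others, which left little between them in T24. With median centring the bright members still stood above genes of the same brightness, by 0.14, 0.22, 0.18, 0.44, 0.22, 0.26 and 0.16 on the arrays other than that of miR-125b-1-3p, where the difference was -0.0097.

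SNORD3B-1, a copy of U3, which pairs with the ribosomal precursor and is needed for its early cuts, had log2 ratios of 0.16, 0.24, 0.40, 0.27, 1.06, 0.57, 0.58 and 0.27. The value with miR-532-5p in 786-O was the highest of any member outside the clusters under the offset of 50. With plain subtraction it was 0.98 on that array, below SNORD46 at 1.31 and SNORD16 at 1.20, and in the deposited ratio 0.88, below 1.40 and 1.25. Its raw Cy3 signal was 14824 on that array and 13239 to 16722 over all 8, and its Cy5 signal was 32137 with miR-532-5p and 37427 with miR-532-3p. The raw Cy5 signal with miR-532-5p was thus the lowest of the 8, and the ratio became the highest after correction for dye and intensity. With median centring in place of loess it was 1.13 on that array, below 1.83 with miR-140-5p and 1.49 with miR-532-3p. Another probe of the same gene gave 0.12, 0.15, 0.058, 0.066, 0.63, -0.012, 0.26 and 0.13. Both probes were high with miR-532-5p, but with miR-532-3p they stood 0.57 against -0.012. Other U3 copies share most of their sequence with SNORD3B-1, and no other SNORD3 gene, nor U8, U13 or U14, has a probe named so on the array, so the values are uncertain between copies.

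SNORD16, a guide for 18S rRNA within RPL4, had log2 ratios of 0.40, 0.48, 0.53, 0.23, 0.86, 0.57, 0.76 and 0.34. It passed 0.5 with miR-199-3p, both miR-532 strands and miR-140-5p. SNORD26, a guide for 28S rRNA within SNHG1, had 0.40, 0.38, 0.36, 0.13, 0.70, 0.53, 0.72 and 0.56 and passed 0.5 on all arrays of 786-O and T24. SNORD57, a guide for 18S rRNA within NOP56, had 0.34, 0.38, 0.40, 0.36, 0.45, 0.41, 0.63 and 0.55. The T24 arrays alone passed 0.5.

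SNORD15A and SNORD15B, guides for 28S rRNA in different introns of RPS3, had 0.59 and 0.61 with miR-140-5p. SNORD15A also had 0.52 after bisamide for 48 h, where SNORD15B had 0.27. SNORD46, a guide for 28S rRNA, had 0.29, 0.40, 0.41, 0.34, 0.78, 0.22, 0.43 and 0.53. SNORD104, a guide for 28S rRNA, had 0.54 with miR-140-3p and 0.0017 with miR-125b-1-3p.

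SNORD110, a guide for 18S rRNA, reached 0.69 with miR-140-5p, and SNORD68, a guide for both large rRNAs, reached 0.62 with miR-532-5p. SNORD83B had 0.53 and SNORD12C 0.51 on the miR-532-5p array, and SNORD27 had 0.50 on that of miR-140-3p. In all, 26 values of 15 genes passed 0.5 in size, 25 of them upwards and 1 of them in SNORD116. With miR-125b-1-3p no member outside the clusters passed 0.5, and the highest were SNORD43 at 0.46, SNORD56 at 0.38 and SNORD57 at 0.36. After bisamide for 24 h none passed it either, and SNORD16, SNORD26 and SNORD110 were highest at 0.40 each.

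**Figure D2:**
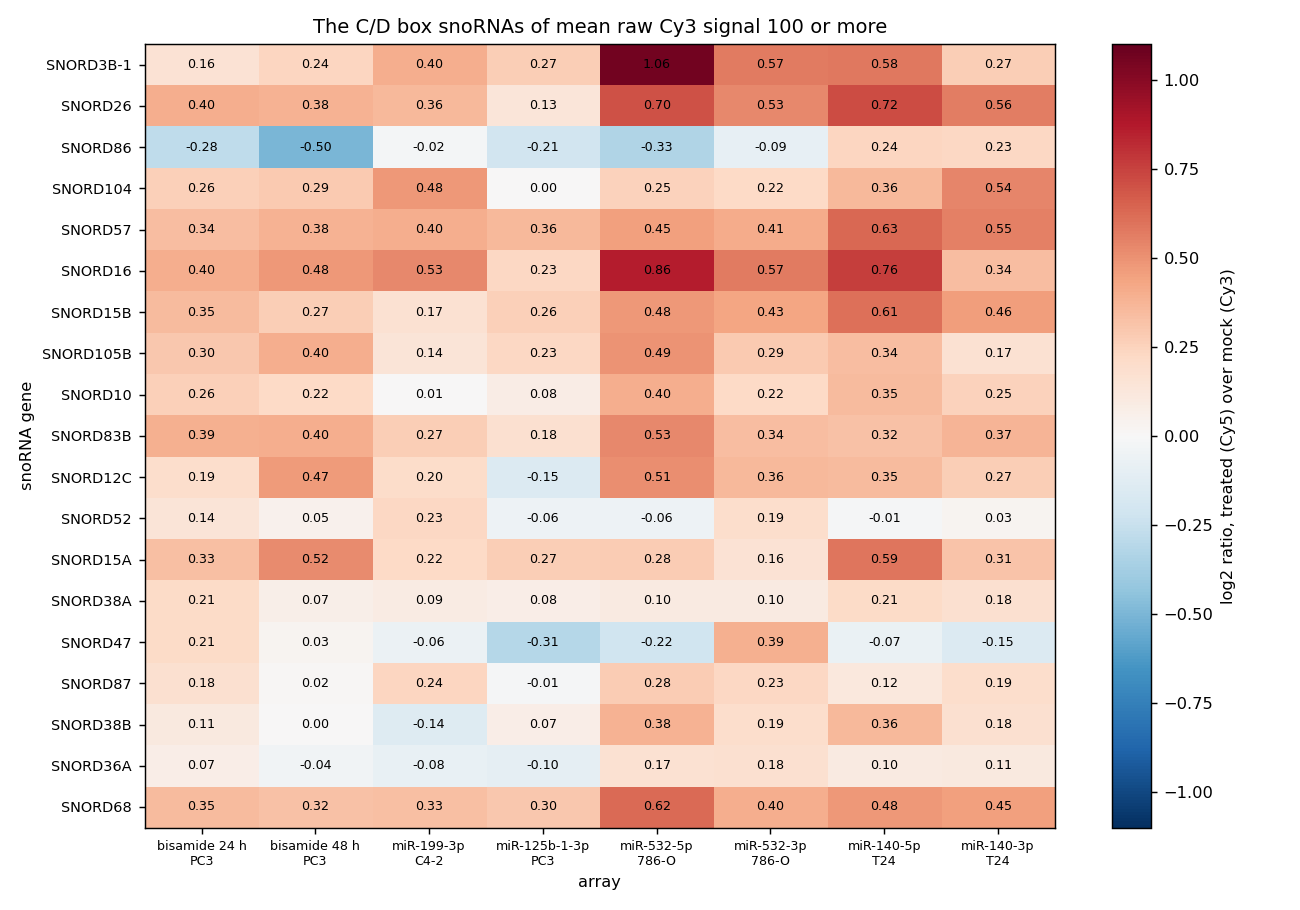
Log2 ratio of treated (Cy5) over mock (Cy3) RNA, printed in each cell and coloured from blue (lower) to red (higher), for the 19 C/D box snoRNA genes outside SNORD113 to SNORD116 with a mean raw Cy3 signal of 100 or more. Rows are ordered by that signal, and columns are the 8 arrays. SNORD86 is below 0 on the first 6 arrays, while SNORD26, SNORD57, SNORD16 and SNORD68 are above 0 on all 8.

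SNORD86, a snoRNA that has been linked to the splicing of its own host NOP56, was the member with the lowest values on several arrays. Its log2 ratios were -0.28, -0.50, -0.022, -0.21, -0.33, -0.091, 0.24 and 0.23. Both bisamide arrays and the miR-532-5p array were the lowest, and both T24 arrays were above 0. Without the background correction the value after bisamide for 48 h stayed past -0.5, and with median centring in place of loess it turned to 0.23, on a scale where the median of all genes stood at 0.44.

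The other low values were small. After bisamide SNORD11, within NOP58, had -0.12 at 24 h and -0.20 at 48 h, SNORD18B, within RPL4, had -0.10 at 24 h, and SNORD51, within EEF1B2, had -0.14 at 48 h. With miR-199-3p in C4-2 the lowest were SNORD19, within GNL3, at -0.34, SNORD58C, within RPL17, at -0.20 and SNORD44 at -0.17. With miR-125b-1-3p the lowest were SNORD47 at -0.31 and SNORD80 at -0.22, both within GAS5, and SNORD86 at -0.21. With miR-532-5p they were SNORD86 at -0.33, SNORD47 at -0.22 and SNORD35B at -0.14. In T24 no member outside the clusters fell to -0.2, and the lowest were SNORD1A at -0.08, SNORD45B at -0.078 and SNORD109B at -0.073 with miR-140-5p and SNORD47 at -0.15, SNORD99 at -0.11 and SNORD108 at -0.086 with miR-140-3p. With miR-532-3p SNORD86 at -0.091, SNORD35B at -0.089 and SNORD17 at -0.059 were lowest.

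SNORD48, also called RNU48 and often used to scale miRNA assays, had log2 ratios of 0.093, 0.28, 0.15, 0.14, 0.084, 0.28, 0.11 and 0.20. Its raw Cy3 signal was 33.1 to 49.8, close to the lower end of what the arrays measured. SNORD44 and SNORD47, other common reference RNAs, were less alike. SNORD44 was measured in both channels of 5 arrays only, with raw Cy3 signals of 23.1 to 38.7. SNORD47 ranged from -0.31 with miR-125b-1-3p to 0.39 with miR-532-3p, and had 0.21, 0.027, -0.062, -0.22, -0.072 and -0.15 on the other arrays. On the 786-O arrays it stood at -0.22 with the 5p strand and at 0.39 with the 3p strand of miR-532. SNORD22, or U22, a processing snoRNA within SNHG1, had 0.10, 0.088, 0.042, -0.19, 0.14, -0.0012, 0.18 and 0.17, with miR-125b-1-3p the lowest.

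By position, 125 of the 131 members outside the clusters lie within a gene on the same strand that is itself on the array, and they have 66 different hosts. Where both were measured, the snoRNA had the higher log2 ratio in 46.4%, 45.8%, 72.6%, 76.6%, 74.7%, 38%, 81.4% and 74.7% of 97, 96, 95, 94, 79, 79, 86 and 87 pairs. The median host ratio of these pairs was 0.089, 0.084, -0.082, -0.12, -0.0052, 0.20, -0.04 and -0.042. The pairs share hosts and are not independent. The median of snoRNA minus host was -0.0079, -0.043, 0.15, 0.11, 0.12, -0.089, 0.18 and 0.20. Hosts stood higher with miR-532-3p, while the bisamide arrays were close to even. Most snoRNA probes were dim and many hosts bright, and the offset described above makes the ratios of dim probes smaller in size. A snoRNA is therefore more likely to lie above a host that fell and below a host that rose. The shares were lowest on the arrays with a positive median host ratio, at 0.089, 0.084 and 0.20. Whether snoRNAs and hosts changed separately was not tested.

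GAS5, a noncoding RNA whose spliced form is broken down during translation, had log2 ratios of 0.56, 0.61, -0.22, -0.17, 0.33, 0.56, -0.04 and -0.31. Its other probe had 0.83, 0.86, -0.28, -0.40, 0.27, 0.67, -0.38 and -0.67. The median of the measured snoRNAs of GAS5 was 0.062, 0.078, 0.0012, -0.14, 0.09, 0.095, 0.01 and 0.011. GAS5 thus stood past 0.5 on the bisamide and miR-532-3p arrays, where the median of its snoRNAs stayed under 0.1. These snoRNAs were far dimmer than GAS5, so the offset made their ratios smaller in size. How much of the gap comes from the offset was not tested. Of the 7, SNORD44, SNORD74, SNORD75 and SNORD77 were near the lower end of the measured signals, and SNORD47 followed GAS5 with miR-532-3p at 0.39 but not with miR-532-5p at -0.22. SNHG1, the host of 8 members from SNORD22 to SNORD31, had -0.54 with miR-199-3p and -0.75 with miR-140-5p, while its snoRNAs ranged from -0.055 to 0.36 and from -0.018 to 0.72 on those arrays. SNORD26 was the highest of the 8 on both arrays. A dimmer probe of SNHG1 had -0.28 and -0.59 there, and a further one was not measured in both channels.

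NOP56 had -0.33, -0.32, -0.12, -0.20, -0.95, -0.21, -0.11 and -0.20, and its other probe had -0.11, -0.0054, -0.094, -0.15, -0.74, -0.089, -0.13 and -0.32. Of its snoRNAs, SNORD86 was below 0 on 6 arrays, while SNORD57, SNORD110 and SNORD56 were above 0 on all 8. With miR-532-5p the host stood at -0.95, SNORD86 at -0.33, SNORD56 at 0.16, and SNORD57 and SNORD110 at 0.45 each. The snoRNAs of ribosomal protein genes also differed within a host. In RPL4, SNORD16 had 0.86 with miR-532-5p where the other measured member had -0.014 and RPL4 itself -0.30.

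The mock channels showed which members differ between the lines. The signals were compared as log2 levels on 2 scales, because the arrays of C4-2 and 786-O were dimmer. Their 90th percentile of raw Cy3 signal was 162 to 165, beside 311 to 413 for the other arrays. On the first scale the mean intensity of both channels was quantile normalized, and the Cy3 level was derived from it and the corrected log2 ratio. A level on that scale thus also depends on the treated channel. The second scale was the background-corrected Cy3 signal alone, less the median of its array. Over the 72 members measured in the Cy3 channel of all arrays, the median difference from PC3 was 0.49 in C4-2, 0.14 in 786-O and 0.011 in T24 on the first scale and -0.063, -0.24 and -0.11 on the second. The median of all genes measured in the same channels moved with the scale, at 0.062, 0.039 and 0.028 on the first and -0.62, -0.71 and -0.15 on the second. Relative to it, the members stood at 0.43 and 0.56 in C4-2, 0.10 and 0.47 in 786-O, and -0.016 and 0.034 in T24 on the 2 scales. On the second scale the offset holds dim probes near a floor, so they cannot follow a fall in the median of all genes. KLK3, unmeasured in PC3 and 786-O, stood at 0.75 in 786-O on that measure. For dim members the second scale therefore cannot show a level above PC3, and the first alone gave 0.43 in C4-2 and 0.10 in 786-O. The median SD over the 3 PC3 mocks was 0.07, and the largest was 0.39 for SNORD86.

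SNORD86 kept its order between lines on both scales. Its raw Cy3 signal was 1217, 915 and 737 in the PC3 mocks, 46.0 in C4-2, 141 and 129 in 786-O, and 420 and 418 in T24. Against PC3 its log2 level was lower by -2.93 in C4-2, -1.41 in 786-O and -0.76 in T24 on the first scale, and by -3.59, -2.50 and -1.07 on the second. NOP56 gave raw signals of 5725, 4520 and 3918 in PC3, 357 in C4-2, 1091 and 1104 in 786-O and 2715 and 2651 in T24, the same order of lines and of the PC3 mocks. SNORD57, within the same host, gave 289, 277 and 270 in PC3 and 270 in C4-2, 93.2 and 96.7 in 786-O and 162 and 166 in T24. SNORD86 and NOP56 were thus far lower in C4-2 than in PC3, while SNORD57 differed from PC3 by 1.15 on the first scale and 0.0045 on the second. Relative to all genes SNORD57 differed by 1.09 and 0.63. SNORD110 gave 66.2 in C4-2 and 147, 135 and 123 in the PC3 mocks, a difference of 0.11 on the first scale and -0.70 on the second, and relative to all genes of 0.052 and -0.08. SNORD56 gave 41.6 in C4-2 and 108, 96.9 and 73.1 in PC3, and differed by -0.17 and -0.69, or by -0.23 and -0.063 relative to all genes.

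**Figure D3:**
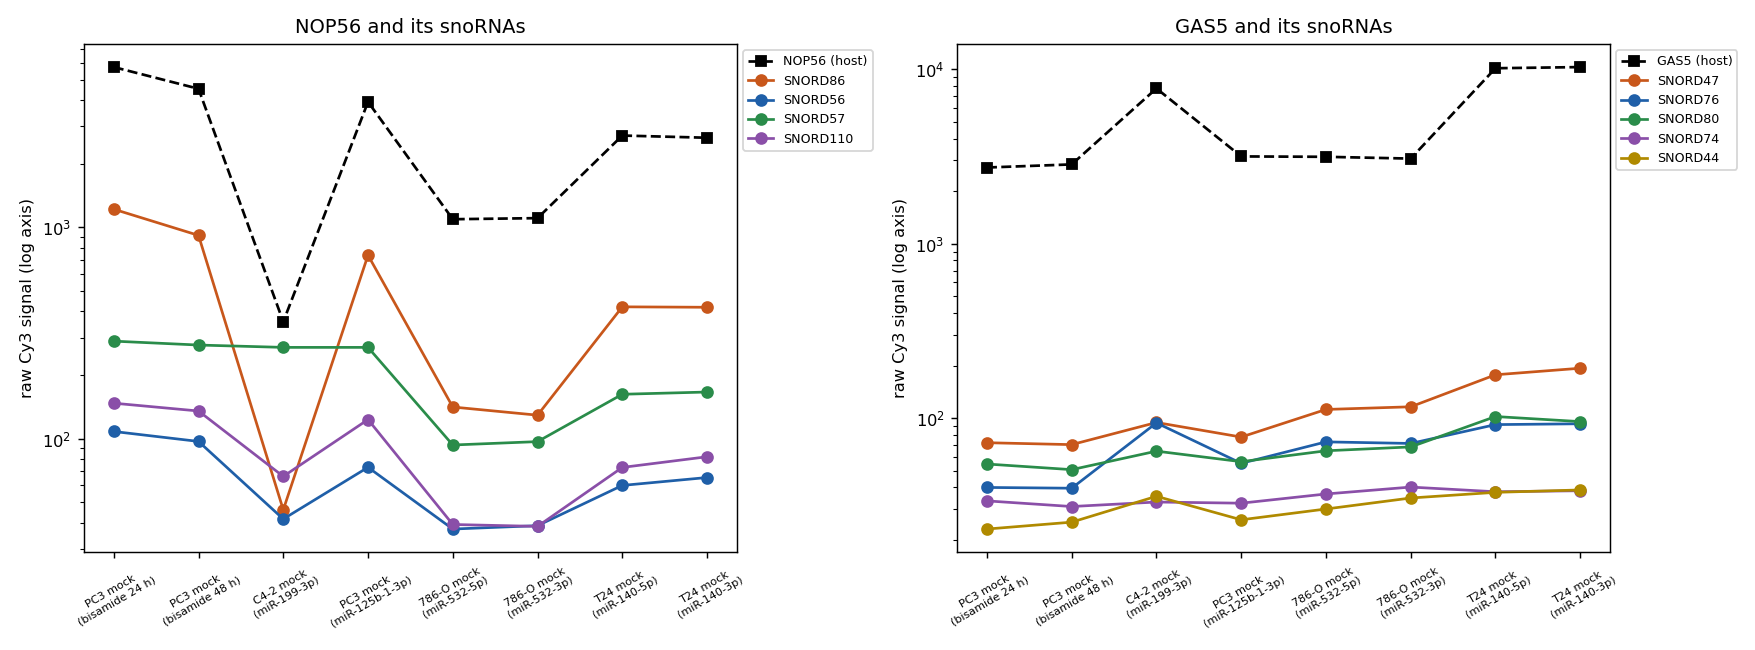
Raw Cy3 signal (log axis) of the 8 mock channels, named by cell line and by the treatment on the same array, for NOP56 with its 4 snoRNAs and for GAS5 with 5 of its snoRNAs. Squares on a dashed line are the host, circles the snoRNAs. In C4-2 SNORD86 is at 46.0 and NOP56 at 357, both their lowest, while SNORD57 is at 270.

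The GAS5 members ran the other way. SNORD47 gave raw Cy3 signals of 72.2, 70.4 and 77.8 in PC3, 94.3 in C4-2, 112 and 116 in 786-O and 177 and 193 in T24, so every other line lay above the PC3 mocks. Its log2 level exceeded that in PC3 by 1.12, 1.38 and 1.16 on the first scale and by 0.32, 0.50 and 1.07 on the second. SNORD76 gave 40.0, 39.6 and 55.0 in PC3, 93.8 in C4-2, 73.0 and 71.5 in 786-O and 91.7 and 92.7 in T24. SNORD80 differed less, with 50.6 to 56.2 in PC3, 64.6 in C4-2, 64.9 and 68.3 in 786-O and 102 and 95.4 in T24. GAS5 itself gave 2730, 2844 and 3160 in PC3, 7751 in C4-2, 3144 and 3071 in 786-O and 10121 and 10277 in T24. In 786-O GAS5 had the raw signal of PC3 on arrays that were dimmer throughout.

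SNORD104 was highest in PC3, with raw Cy3 signals of 703, 609 and 526, beside 199 in C4-2, 160 and 156 in 786-O and 193 and 190 in T24. Its difference from PC3 was -0.25, -0.52 and -1.20 on the first scale and -1.43, -1.71 and -1.49 on the second, below PC3 on both, but for C4-2 within little more than the PC3 SD of 0.23 on the first. SNORD48 differed from PC3 by 0.33, 0.23 and -0.15 on the first scale and by -0.11, -0.19 and -0.25 on the second, which relative to the median of all genes came to 0.27, 0.19 and -0.18 and to 0.52, 0.52 and -0.10. SNORD48 is dim, so its values on the second scale carry the limit of the offset given above.

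Of the imprinted clusters, few members were measured. None of the 8 SNORD113 genes and none of the 10 SNORD115 genes was well above background in any channel, and 2 of 29 SNORD114 genes were, SNORD114-3 and SNORD114-23, both in the Cy5 channel of the miR-125b-1-3p array alone, at raw signals of 22.6 and 21.4. Of the 10 SNORD116 genes 8 were measured in at least 1 channel. Per array, 7, 8, 5, 10, 2, 2, 5 and 7 genes of the clusters were measured in at least 1 channel and 4, 5, 3, 4, 1, 2, 5 and 5 in both. The 786-O arrays had the fewest. Those arrays also had the fewest of all 43317 genes in at least 1 channel, at 18806 and 17963, beside 18901 to 22821 on the others. The counts alone therefore do not show lower levels of the clusters in 786-O.

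SNORD116-19 was the only cluster gene measured in both channels of all 8 arrays. Its raw Cy3 signal was 88.8, 98.8 and 81.8 in the PC3 mocks, 118 in C4-2, 38.0 and 44.5 in 786-O and 206 and 208 in T24, so that in raw signal T24 lay highest and 786-O lowest. Its log2 level in T24 exceeded that in PC3 by 1.12 on the first scale and 0.99 on the second. In 786-O it was lower than in PC3 by -0.13 and -0.70, of which the first is no more than the SD of 0.13 over the PC3 mocks, and relative to all genes the differences were -0.17 and 0.014. Its log2 ratio was 0.20, 0.43, 0.42, 0.70, 0.27, 0.17, -0.41 and 0.0011. The value of 0.70 with miR-125b-1-3p in PC3 was the highest of the clusters and that of -0.41 with miR-140-5p in T24 the lowest.

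SNORD116-6 had 0.088, 0.16, 0.16, 0.20, -0.16, -0.26 and -0.074 on the 7 arrays where both channels were measured, which leaves out miR-532-5p. SNORD116-26 had 0.13, 0.08, 0.076 and 0.12 on the PC3 and C4-2 arrays in order and -0.037 and -0.063 in T24. SNORD116-27 had 0.15 on the miR-125b-1-3p array and -0.16 on that of miR-140-5p, where SNORD116-11 had -0.27. SNORD116-12, SNORD116-28 and SNORD116-29 were measured in Cy5 alone, at raw signals of 21.4 to 27.4. All 5 cluster genes measured with miR-140-5p were below 0 there, and all 4 measured with miR-125b-1-3p were above 0. The copies are not independent. The probe of SNORD116-19 shares an unbroken run of 27 bases with that of SNORD116-6, and 35 of the 57 cluster probes share at least 20 bases with another member's probe, so a signal may come from another copy. Outside the clusters 10 of 135 probes share such a run.

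**Figure D4:**
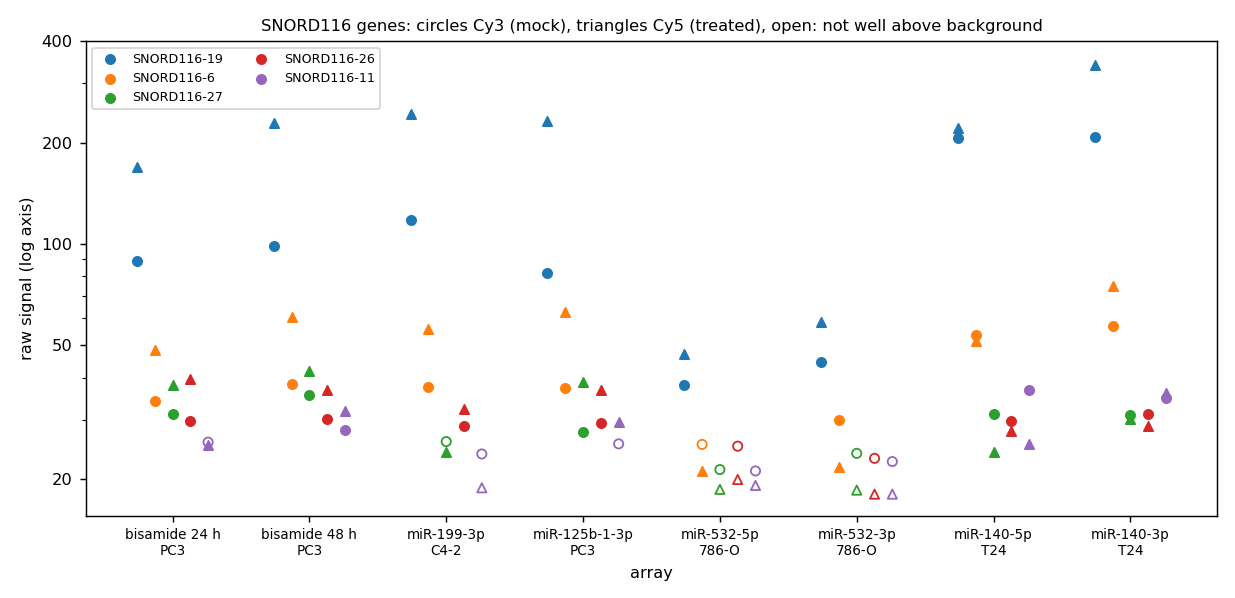
Raw signal (log axis) of the 5 SNORD116 genes measured in both channels of at least 1 array, on the 8 arrays. Circles are Cy3 (mock) and triangles Cy5 (treated), and open symbols were not well above background. SNORD116-19 lies highest throughout, at 206 and 208 in the T24 mocks and 38.0 and 44.5 in those of 786-O.

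A member measured in Cy5 alone has only a bound on its ratio. There were 158 values measured in 1 channel alone, from 59 genes, the clusters included, and 108 of them gave a bound above 1-fold. The bounds were small. The largest was at least 1.22-fold, for SNORD71 with miR-532-5p, and SNORD44 with miR-125b-1-3p followed at 1.16-fold. All but 1 of those values outside the clusters were in Cy5, since 17, 15, 11, 20, 9, 17, 24 and 27 members were measured in Cy5 alone. They were among 120, 118, 113, 120, 94, 101, 117 and 122 members measured in at least 1 channel. Of all genes, 3428, 3627, 3107, 4072, 2680, 2262, 3086 and 3556 were measured in Cy5 alone. Those were among 22774, 22743, 18901, 22821, 18806, 17963, 20855 and 21183. From 56 to 457 of all genes were measured in Cy3 alone, so the imbalance was common to each whole array.

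Of 16 genes for the proteins that bind or assemble C/D box snoRNAs, most had log2 ratios a little below 0. Their median was -0.10, -0.12, -0.12, -0.11, -0.24, -0.084, -0.079 and -0.028. None passed 0.5 upwards, and 4 values passed it downwards, 1 of 15 genes with miR-199-3p and 3 of 15 with miR-532-5p, beside 2.74% and 3.67% of all genes. These were HSP90AA1, a chaperone that acts in assembly, at -0.84 with miR-199-3p, and NOP56 at -0.95, TAF9 at -0.66 and PIH1D1, a subunit of the R2TP chaperone complex, at -0.55 with miR-532-5p. FBL, the gene of the methyltransferase fibrillarin, had -0.13, -0.12, 0.24, -0.16, -0.11, -0.20, 0.23 and 0.22. NOP58, the partner of NOP56, had -0.12, -0.20, 0.22, -0.037, -0.14, -0.028, -0.24 and -0.19. TGS1, which makes the cap of U3, had 0.26 with miR-532-5p and -0.35 after bisamide for 24 h.

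The H/ACA and Cajal body RNAs, 118 genes that guide pseudouridylation or act on spliceosomal RNAs, are the family most like this one. Their median log2 ratio was 0.088, 0.034, 0.07, 0.13, 0.16, 0.0053, 0.15 and 0.31, and 0, 1, 2, 18, 9, 1, 11 and 34 of them passed 0.5 upwards, beside 1.05%, 0.915%, 1.75%, 1.77%, 3.6%, 1.71%, 1.74% and 0.998% of all genes. The counts stood furthest apart on the miR-125b-1-3p array, where 0 of 100 C/D box members and 18 of 109 of the others passed 0.5, and on the miR-140-3p array, at 5 of 95 and 34 of 106. With miR-532-3p the order was the other way, at 3 of 84 and 1 of 97. The C/D box members were the dimmer family, and the offset draws dim ratios towards 0, which lowers their counts more. Among genes of raw Cy3 signal 100 or more, 0 of 19 and 10 of 36 passed 0.5 with miR-125b-1-3p, beside 218 of 8486 of all genes. With miR-140-3p they were 3 of 19 and 15 of 36, beside 141 of 8385. With 1 array per treatment the difference between the families could not be tested.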

How the data were processed

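Agilent Feature Extraction 11.5.1.1 was the authors' scanner software per the file headers, and the deposited files hold its mean spot intensity and a median local background intensity for each dye. The deposited log10 ratio of Cy5 over Cy3, made by the same software, is also held by the deposited series table. Both served as alternatives only. The intensities were corrected here with limma 3.58.1 (R 4.3.3), by normexp background correction (offset 50) followed by loess within each array, which gave the log2 ratio from the deposited intensities. Outlier spots were left out and the spots of a probe were averaged, and the probe with the highest mean intensity stood for its gene. The normalization was tested on simulated data. Groups came from the labels, with 1 array each, so no p-value was computed, and precision is limited by how few arrays there are. Channel levels came from the Aquantile method. A bound divides the brighter channel by the dim channel's reading or by that channel's lowest signal well above background, whichever is larger, and is open to dye bias. By accession all 188 members were found in RefSeq's gene table (GRCh38.p14), which gave lengths and host genes, with strands from the probes' GRCh37 coordinates. Genes named are U3, U22, SNORD44, SNORD47 and SNORD48, on each array the 3 lowest and 3 highest, the 5 of highest signal, and the imprinted genes measured. Those past 0.5 or beside their hosts that fall outside these were named after their values were seen. No gene passed 0.5 one way on 6 arrays. Some results for genes withheld from this text are not reported here. The members and lists were chosen with earlier results of these data known. The alternatives were plain or no background correction, median centring, the deposited ratios, probes measured in at least 1 channel, the mean of a gene's probes, subtraction of the other arrays' median, and a threshold of 1.0.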

Additional observations from a re-analysis of the deposited data

How the results depend on the processing

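Values are in the order of the arrays in the report, and where a cause is not named the cause was not tested. With plain background subtraction the median log2 ratio outside the clusters was 0.16, 0.15, 0.11, 0.036, 0.32, 0.32, 0.37 and 0.28, with 1, 10, 7, 6, 25, 18, 32 and 21 genes above 0.5 and 0, 2, 4, 4, 3, 0, 1 and 0 below -0.5. Without background correction it was 0.12, 0.11, 0.073, 0.035, 0.16, 0.19, 0.26 and 0.21, with 0, 3, 2, 3, 14, 9, 12 and 8 above and 1 below. Of all genes, 1.65%, 1.48%, 3.56%, 2.88%, 6.87%, 3.7%, 3.06% and 1.56% were then above. With the scanner's own ratio, and equally with the deposited series table, which holds the same values, the median of the members was 0.15, 0.14, 0.11, -0.014, 0.32, 0.34, 0.41 and 0.30, with 1, 9, 7, 6, 30, 27, 31 and 23 above and 1, 3, 6, 4, 2, 4, 1 and 0 below. Of all genes, 3.8%, 3.72%, 8.84%, 5.56%, 15%, 10.7%, 7.54% and 4.43% were then above. With median centring the median of the members was 0.38, 0.37, 0.28, 0.24, 0.077, 0.21, 0.40 and 0.44, with 31, 33, 18, 19, 5, 11, 28 and 36 above and 0 below, beside the shift of all genes given in the report. Of all genes, 44.9%, 43.9%, 28.6%, 41.2%, 2.34%, 16.3%, 35.7% and 44.9% were then above, so the members were below that share on every array but that of miR-532-5p. After subtracting each gene's median over the other arrays the median of the members was 0.0014, -0.019, -0.034, -0.087, -0.0019, 0.0051, 0.059 and 0.041, with 0, 0, 0, 0, 1, 0, 0 and 0 above and 0 below. That setting by construction removes what all arrays share. With genes measured in at least 1 channel the median with miR-140-3p was 0.10. At a threshold of 1.0 the counts above were 0, 0, 0, 0, 1, 0, 0 and 0 and those below 0. Requiring both channels left 4, 5, 3, 4, 1, 2, 5 and 5 genes of SNORD113 to SNORD116, because fewer probes pass. The median Cy3 level of the members against PC3 turned from 0.49, 0.14 and 0.011 in C4-2, 786-O and T24 to -0.063, -0.24 and -0.11 with the scaling by the array's median, which moved the median of all genes to -0.62, -0.71 and -0.15. Relative to all genes the members lay above PC3 in C4-2 and 786-O on both scales. The second scale holds dim probes near a floor, so it cannot decide this for them.

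Of the 26 values past 0.5 in size, all kept their sign and size past 0.5 with plain subtraction, without background correction and with 1 channel. With the deposited ratio and with the mean of both probes, SNORD3B-1 came under 0.5 with miR-140-5p, at 0.48 and 0.42, and with miR-532-3p, at 0.49 and 0.28. With median centring SNORD86 after bisamide for 48 h turned to 0.23, and with miR-532-5p SNORD12C came to 0.39 and SNORD83B to 0.41. On that scale 16.3% to 44.9% of all genes passed 0.5 on every array but that of miR-532-5p. An upward value that stayed past 0.5 there therefore says little. After subtracting the other arrays' median 24 of the 26 came under 0.5. No paired analysis was possible because there was 1 array per group, and no replicate could be left out. The raw signals of most members lie within a few times those of unmeasured probes, and their spot error at that signal was not measured.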
